A study of Mus musculus with 2 samples.

Results

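Inner ear neurons in which Calb2 counts were at least equal to Pcp4 counts were described here in 2 single-cell libraries of noise-exposed CBA/CaJ mice. A barcode was a member if it had at least 300 detected genes, at most 20% mitochondrial UMIs (unique molecular identifiers, which count captured mRNA molecules), a UMI of at least 5 of 9 neuron genes (Nefl, Nefm, Nefh, Snap25, Tubb3, Stmn2, Scn1a, Rbfox3 and Map2), and no more Pcp4 than Calb2 UMIs. The members were selected on these measured values, so the levels of these 11 genes are descriptions. The rule found 2302 members among 42625 barcodes that passed the gene and mitochondrial limits. Of these, 860 of 19953 lay in the noise-only library and 1442 of 22672 in the library of AAV-Isl1 plus noise.

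Both groups were mice aged 4 to 6 weeks that had heard noise of 105 dB between 1 and 20 kHz for 2 h, with tissue taken 2 days later. In the AAV-Isl1 plus noise group the cochleae had first been treated with an adeno-associated virus carrying Isl1, and the noise-only group was the untreated opposite ears of those animals. Each group was 1 library of 5 mice, labelled as cochlear sensory epithelium and dissociated with trypsin. There was no group without noise, no group with an empty vector and no replicate library, so no test between the groups was possible. The intervals given are exact 95% counting intervals, cover counting error only, and treat UMIs or cells as independent. A virus effect, an ear difference and a library difference cannot be told apart.

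Spiral ganglion neurons carry sound information from hair cells to the brainstem. Most are type I neurons, which contact inner hair cells and fall into molecular subtypes marked by calretinin (Calb2), by calbindin (Calb1) and by Lypd1 with Pou4f1. The sparse type II neurons contact outer hair cells and express peripherin (Prph). Fast, precisely timed firing in these cells depends on potassium channels of the Kv1 and Kv3 families, on sodium channels of the axon and its nodes, and on HCN channels. Calb2 encodes a calcium-buffering protein, and Pcp4 encodes a small peptide that binds calmodulin. On GRCm38, Calb2 lies on chromosome 8 from 110137502 to 110168210 (minus strand), Pcp4 on chromosome 16 from 96467606 to 96525793 (plus strand), Lypd1 on chromosome 1 from 125867622 to 125913101 (minus strand) and Isl1 on chromosome 13 from 116298281 to 116309689 (minus strand), by the annotation's gene boundaries.

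The deposited matrices held 38330528 UMIs in 21068 barcodes (noise only) and 40268563 UMIs in 24209 barcodes (AAV-Isl1 plus noise), far more barcodes than the 1600 or so cells that the labels say were loaded. The lowest barcode held 500 UMIs in both. The libraries had 145 barcode sequences in common, none was a member in both, and 17 members carried one. Members stood far above the rest in depth: their median was 9984.5 UMIs in the noise-only library (quartiles 7484.75 and 11871.5) and 6392 in the AAV-Isl1 library (quartiles 5000.25 and 7702.25), while all kept barcodes had medians of 1094 and 1102. Median genes per member were 3675 and 2803. The median mitochondrial share was 3.59% and 3.57%. The need for 5 detected genes selects deep barcodes. Summed over members, 8179229 and 9114462 UMIs were available.

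Members made up 4.31% of kept noise-only barcodes (4.03 to 4.60, Clopper-Pearson) and 6.36% of kept AAV-Isl1 barcodes (6.05 to 6.69), a ratio of 1.48. They were 93.6% and 87.5% of all barcodes that met the neuron rule, and the remaining 59 and 206, with more Pcp4 than Calb2 UMIs, are called Pcp4-dominant neurons below. Each share is that of 1 library, and the spread between libraries of one group is unknown.

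Counted by at least 1 Calb2 UMI, the name Calb2-dominant held for at most about 2 in 3 members. In the noise-only library 291 members (33.8%) had neither a Calb2 nor a Pcp4 UMI and entered by the tie, as did 443 (30.7%) in the AAV-Isl1 library. At least 1 Calb2 UMI was seen in 569 (66.2%) and 999 (69.3%), and 561 and 988 had at least 10 times as many Calb2 as Pcp4 UMIs. Calb2 ranged from 0 to 285 UMIs per member (median 8) in the noise-only library and from 0 to 226 (median 9) in the AAV-Isl1 library. Just inside the rule, 41 and 72 members had 1 more Calb2 than Pcp4 UMI, and just outside it 5 and 17 barcodes had 1 more Pcp4 UMI. At the other threshold, 31 and 62 members had exactly 5 of the 9 genes and 28 and 69 barcodes with 4 were left out. The set is therefore better read as inner ear neurons without dominant Pcp4.

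**Figure D1:**
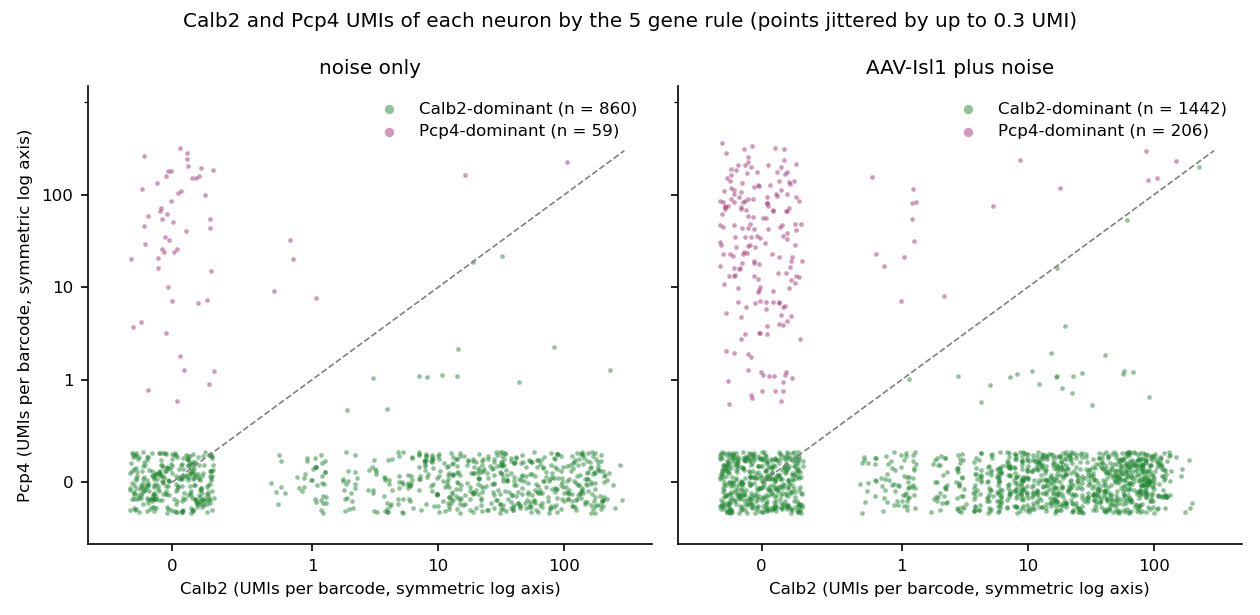
Calb2 (x axis) and Pcp4 (y axis) UMIs of every barcode that met the neuron rule, both on symmetric log axes, in the noise-only (left) and AAV-Isl1 plus noise (right) library; green points are the 860 and 1442 members, purple points the 59 and 206 Pcp4-dominant neurons, and the dashed line marks equal counts. Most green points lie along the bottom edge, with 291 and 443 of them at 0 for both genes, and few points lie near the line away from 0.

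The rule's own genes were detected as follows, which is a description of the selection. Nefh, the heavy neurofilament subunit, was detected in 99.5% and 99.4% of members and Rbfox3, a neuronal RNA-binding protein, in 43.7% and 29.9%. These shares are not adjusted for depth, and the median depths were 9984.5 and 6392 UMIs. Rbfox3 stood at 82.5 and 68.6 CPM (UMIs per 1000000 UMIs summed over the members of a library). Among markers that the rule did not use, Prox1, a transcription factor kept by spiral ganglion neurons, stood at 102 CPM in both libraries, against 11.9 and 4.12 CPM in Pcp4-dominant neurons. Tlx3 and Sall3, listed here as vestibular ganglion factors, had 0 UMIs each in noise-only members and 7 each in AAV-Isl1 members, against 29.1 and 30.4 CPM (Tlx3) and 19.9 and 15.9 CPM (Sall3) in Pcp4-dominant neurons. Gata3, a cochlear factor, was not higher in noise-only members than in Pcp4-dominant neurons (43.8 against 42.4 CPM) but was higher in the AAV-Isl1 library (52.2 against 12.3 CPM). Markers of other cranial and sensory ganglia were at or near 0: Phox2a, Scn10a, Trpv1, Mrgprd and Prrxl1 had no UMI in any member of either library.

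UMIs of other cell types' genes were present in members and differed between the libraries. A UMI of Schwann or satellite glia genes was seen in 779 (90.6%) and 1335 (92.6%) of members, and the 12 genes of that list summed to 2706 and 3136 CPM. The 6 erythroid genes summed to 1334 CPM in the noise-only and 2928 CPM in the AAV-Isl1 library, the 8 macrophage genes to 17.5 and 82.7 CPM, and the 6 neutrophil genes to 1.47 and 572 CPM. Ngp, Camp and Retnlg, granule and secreted proteins of neutrophils, had 0 UMIs in noise-only members. S100a9, a neutrophil calcium-binding protein, had 6 and 2296 UMIs, of which 1 member of the AAV-Isl1 library held 706. Of the hair cell list, Myo6, Espn and Cib2 held nearly all UMIs, while Otof, Myo7a and Xirp2 had 0 UMIs in noise-only members and 14, 3 and 21 in AAV-Isl1 members. UMIs of the non-glial lists (macrophage, erythroid, neutrophil, fibrocyte and bone, endothelial, and epithelial and strial genes) passed 0.2% of the total in 67 (7.79%) and 197 (13.7%) members. Without these members S100a9 had 6 and 82 UMIs.

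Members fell into 2 large complementary groups by Calb2 and Lypd1, the latter a membrane-anchored protein of the Ly6 family that marks a type I subtype. Each cell was thinned to 2000 UMIs, which kept 832 and 1387 members and left out 28 and 55 shallower ones. After thinning, 436 noise-only members (52.4%, 48.9 to 55.8) had Calb2 without Lypd1 and 302 (36.3%, 33.0 to 39.7) had Lypd1 without Calb2. In the AAV-Isl1 library these numbers were 798 (57.5%, 54.9 to 60.2) and 434 (31.3%, 28.9 to 33.8). Both genes together were seen in 58 (6.97%) and 94 (6.78%), and neither in 36 (4.33%) and 61 (4.40%). Thinned shares with any Calb2 UMI were 59.4% and 64.3%, against 6.06% and 13.0% in endothelial barcodes, which should lack the gene (unthinned members 66.2% and 69.3%). Thinned shares for Lypd1 were 43.3% and 38.1%, against 3.43% and 4.69% in endothelial barcodes (unthinned members 46.5% and 40.2%). The unthinned endothelial barcodes had medians of 1716.5 and 1336.5 UMIs.

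Calbindin marked fewer cells and mostly those with Calb2. After thinning, Calb1 was seen in 67 noise-only members (8.05%) and 89 AAV-Isl1 members (6.42%), of which 59 and 87 also had Calb2 and 10 and 6 had Lypd1. The endothelial shares were 0.20% and 0.72%, and the unthinned member shares 20.5% and 14.7%.

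To see what else moved with Calb2, members were split into 3 levels: 0 UMIs (291 and 443 members), 1 to 19 UMIs (240 and 488) and 20 or more UMIs (329 and 511). This split was made after the counts were seen and uses depth as well as level, since the median UMIs were 8913, 9224.5 and 11658 in the noise-only library and 5906, 5878.5 and 7538 in the AAV-Isl1 library. Between the highest and the lowest level, 91 of 9455 genes (0.962%) were at least 2-fold higher in both libraries and 160 (1.69%) at least 2-fold lower. All 4 listed subtype a genes were higher with 20 or more Calb2 UMIs, Calb2 itself by the way the split was made. Of the 6 listed subtype b and c genes, 5 were lower and Calb1 was higher.

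Rxrg, a retinoid X receptor gene, stood at 0.40, 2.49 and 30.8 CPM across the 3 levels in noise-only members and at 0.40, 6.89 and 41.1 CPM in AAV-Isl1 members. B3gat1, a glucuronyltransferase that makes the HNK-1 carbohydrate, stood at 1.21, 17.5 and 107.8 CPM and at 2.01, 19.6 and 110.2 CPM. Both genes were near 0 in members without Calb2 and high in members with much of it, in each library. Pcdh20, a protocadherin, stood at 4.44, 7.48 and 36.2 CPM and at 5.63, 10.5 and 42.9 CPM. Trim54, a muscle-type ubiquitin ligase, and Neb, which encodes the thin-filament protein nebulin, belonged to the same side, with Neb at 16.6, 45.4 and 134.1 CPM and at 15.3, 61.6 and 165.5 CPM. Others among the 15 most different included Calcb (a calcitonin gene-related peptide), Vgf (a neuropeptide precursor), Cdh9 (a cadherin), Sh3bgr, Ephx4, Lrrc10b, Frat1 and Syndig1.

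Lypd1 ran the other way, at 3884, 1429 and 47.6 CPM in noise-only members and at 3300, 832.1 and 55.9 CPM in AAV-Isl1 members. Members with 5 or more Lypd1 UMIs were 89.7%, 37.5% and 2.13% of the 3 levels in the noise-only library. In the AAV-Isl1 library they were 87.1%, 22.3% and 3.13%. The middle level thus pooled members with and without much Lypd1, and its summed values are not levels of a typical cell. Grm8, a metabotropic glutamate receptor, stood at 72.7, 17.5 and 0.81 CPM and at 61.1, 15.6 and 1.29 CPM. Pou4f1, a POU-domain transcription factor of sensory neurons, stood at 105.5, 36.9 and 5.95 CPM and at 99.7, 30.8 and 3.62 CPM. These genes were high where Calb2 was absent and low where it was abundant, in each library. Mgat4c, a glycosyltransferase gene, had the same order (58.6, 30.9 and 5.41 CPM; 51.5, 26.1 and 1.03 CPM). Runx1, a runt-domain transcription factor, was as high in the middle level as in the lowest (171.7, 181.1 and 73.2 CPM; 158.4, 166.3 and 36.2 CPM). Calb1 peaked in the middle level in both libraries (4.85, 78.8 and 58.9 CPM; 2.01, 85.2 and 54.0 CPM). Other genes highest without Calb2 included Sphkap (an A-kinase anchor protein), Rph3a (a synaptic vesicle effector), Pcsk2 (a prohormone convertase), Mcub (an inhibitory subunit of the mitochondrial calcium uniporter) and Negr1 (a neural adhesion molecule).

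**Figure D2:**
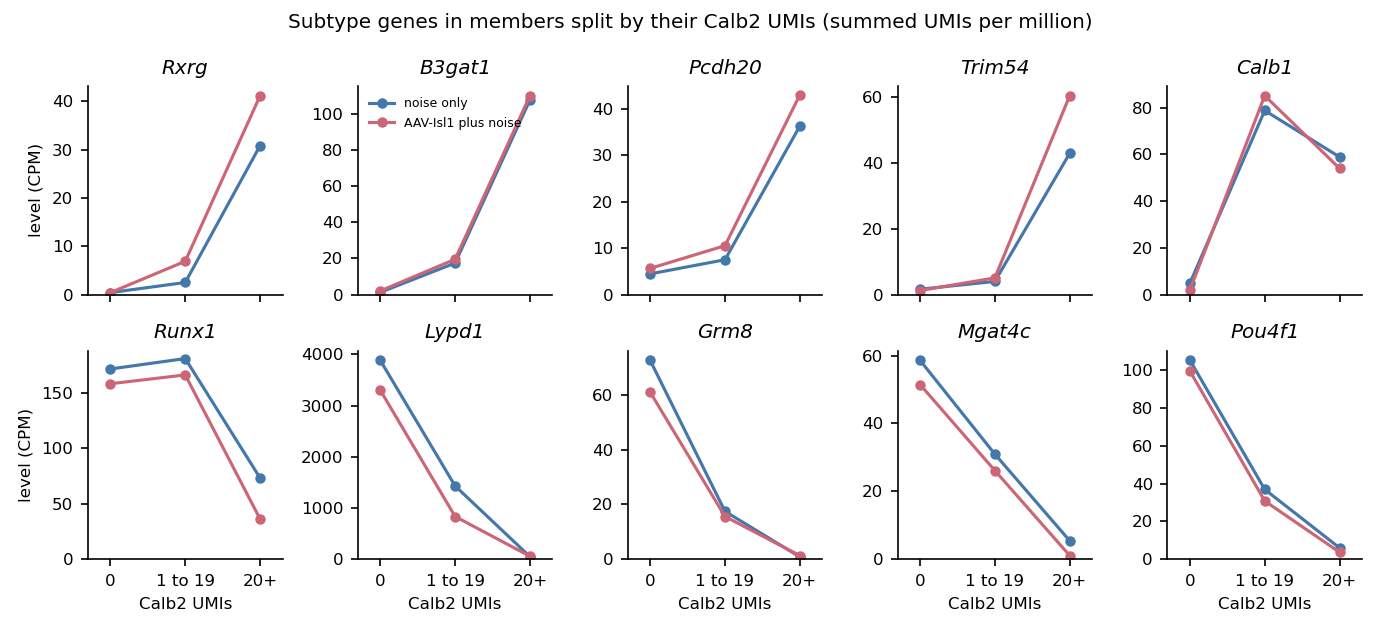
Levels (y axes, CPM, each panel with its own linear scale from 0) of 10 subtype genes in members with 0, 1 to 19 and 20 or more Calb2 UMIs (x axes), in the noise-only (blue) and AAV-Isl1 plus noise (red) library, with 1 summed value per point. Rxrg, B3gat1, Pcdh20 and Trim54 are highest and Lypd1, Grm8, Mgat4c and Pou4f1 lowest in the highest Calb2 level of both libraries, and Calb1 is highest in the middle level.

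Clustering all members of both libraries together gave 10 clusters, some of them led by the same genes. The clusters rest on the same counts as the Calb2 levels, so shared leading genes are a description and no separate support. A pair of clusters was led by Calb2, B3gat1 and Sh3bgr (261 and 406 cells, the larger also by neutrophil genes, of which S100a8 was seen in 8.13% of its cells and stood at 1.84 CPM in its noise-only and 814 CPM in its AAV-Isl1 cells) and another pair by Lypd1, Sphkap and Pou4f1 (522 and 248 cells). A further pair was led by Ttn, the gene for titin, and Calb1 (169 and 306 cells), with Calb2 at 2451 and 2235 CPM. Schwann and satellite glia genes summed to 1045 CPM in one Calb2-led cluster and 2947 CPM in the other, to 1101 and 3576 CPM in the Lypd1-led clusters, and to 298 and 3975 CPM in the Ttn-led clusters, so each pair held a cluster with less and one with more of these genes. The remaining clusters were led by pigment cell genes (Dct and Gpnmb, 116 cells), by macrophage and fibrocyte genes (Cxcl2, Cd74 and Otos, 184 cells), by Kcnb2, Syt1 and erythroid genes (57 cells, with the erythroid list at 94800 CPM) and by Dupd1. Of those 57 cells, 14.0% had Kcnb2 and 15.8% Syt1, while 100% had the hemoglobin gene Hbb-bs. Kcnb2 and Syt1 stood at 0 CPM in its noise-only cells and at 196 and 127 CPM in its AAV-Isl1 cells.

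The Dupd1-led cluster held 33 cells, 15 from the noise-only and 18 from the AAV-Isl1 library, 31 of them without a Calb2 UMI. Of the type II markers, Prph stood at 859.6 CPM against 0.8 CPM in the remaining members, Plk5 at 143 against 0.8, Th at 88.7 against 0 and Ngfr, the p75 neurotrophin receptor, at 682 against 64.3, while Etv4 had no UMI and Smad3 had 1. Dupd1, a dual-specificity phosphatase gene, stood at 2060 CPM against 1.2, and Kcnc4, a Kv3 potassium channel, at 232 against 1.0. Prox1, Syt2, Vamp1, Thy1 and Chgb had no UMI in it. Apoe and Fabp7, which are glial genes, also led the cluster, its glial sum was 7872 CPM and its median depth 4200 UMIs, so it is given no cell type name here.

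Compared with Pcp4-dominant neurons of the same library, 331 of 10537 genes (3.14%) were at least 2-fold higher in members in both libraries and 334 (3.17%) at least 2-fold lower. Highest were Lgr5, a receptor for R-spondins, at 27.3 and 26.6 CPM against 1.32 and 0.51 CPM, and C1ql3, a secreted synaptic organizer, at 161 and 172 CPM against 7.94 and 7.72 CPM. Pcp4-dominant neurons held 755243 and 1943861 UMIs in all, so their Lgr5 level, and with it the rank of Lgr5, rests on very few UMIs. Cd24a, a membrane glycoprotein, stood at 774 and 802 CPM against 42.4 and 32.9 CPM. Neb stood at 76.8 and 93.0 CPM against 0 and 1.54 CPM, which gives at least a 19.3-fold difference in the noise-only library with a floor of 3 UMIs in all Pcp4-dominant neurons. Rgs6 (a regulator of G-protein signalling), Lhx1 (a LIM homeodomain factor), Zfpm2, Lhx1os, Zdbf2, Sema6a, Jsrp1 and Pip5kl1 completed the 12 highest. Lypd1, which marks members without Calb2, was also abundant in Pcp4-dominant neurons (2144 and 1442 CPM there, 1547 and 1176 CPM in members). Slc17a7, a vesicular glutamate transporter, stood at 345 and 333 CPM against 95.3 and 101 CPM.

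Lowest against Pcp4-dominant neurons was Tac1, the substance P precursor, at 1.83 and 0.66 CPM against 855 and 544 CPM. Fxyd7, a regulator of the sodium pump, stood at 0.37 and 0.44 CPM against 200 and 165 CPM. Crhr1, a corticotropin-releasing hormone receptor, stood at 0.73 and 2.19 CPM against 86.1 and 79.7 CPM. Sult1e1, Cabp7, Rprm, Unc13c, Fgf13, Tafa2, Pdzrn3, Hs3st2 and Ndst4 were the other lowest. UMIs of at least 3 of these 12 genes together were seen in 1 of 860 noise-only members and 11 of 1442 AAV-Isl1 members (0.763%, 0.381 to 1.36), against 46 of 59 (78.0%) and 162 of 206 (78.6%) Pcp4-dominant neurons. A few members of the AAV-Isl1 library thus carried genes of the other kind of neuron. That set of genes was chosen after its values were seen.

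**Figure D3:**
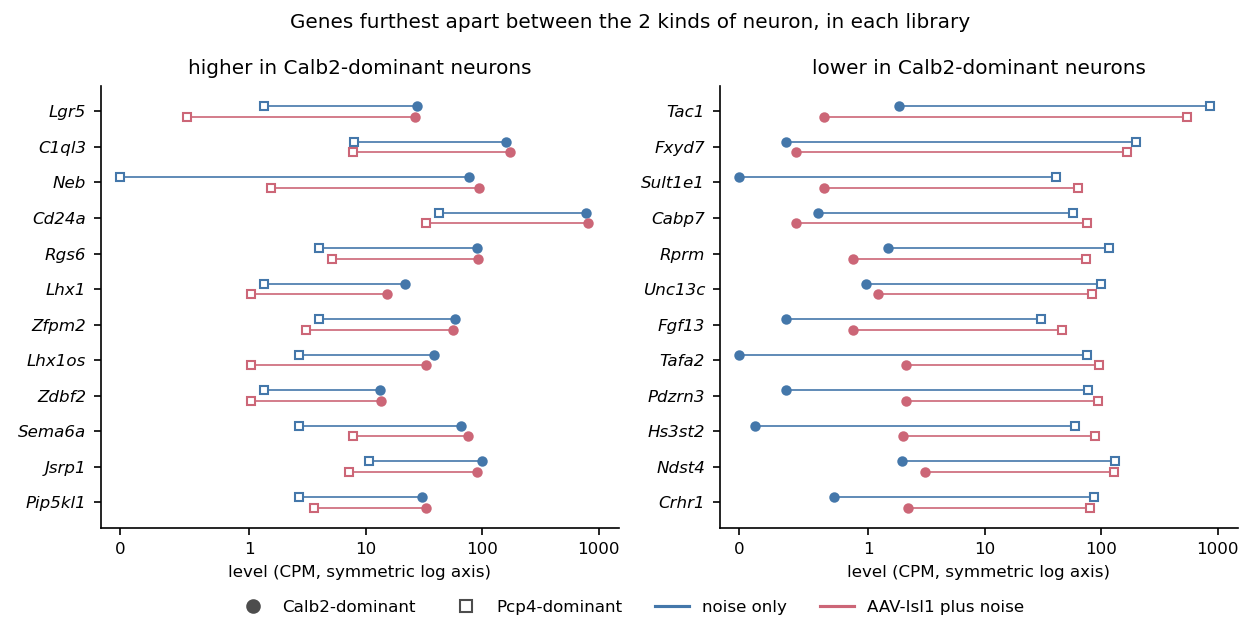
Levels (x axes, CPM, symmetric log axis) of the 12 genes highest (left) and 12 genes lowest (right) in members against Pcp4-dominant neurons; filled circles are members, open squares Pcp4-dominant neurons, blue the noise-only and red the AAV-Isl1 plus noise library. In each row the circle and square of one library lie on the same side of each other in both libraries, as the choice of the genes requires.

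Among potassium channels, 40 of 53 listed genes were measured against Pcp4-dominant neurons, of which 7 were at least 2-fold higher and 13 at least 2-fold lower in members in both libraries, beside 3.14% and 3.17% of all genes. Kcnk1, of the tandem-pore leak channels, stood at 397 and 353 CPM against 114 and 124 CPM. Kcnab3 and Kcnab1 (beta subunits of Kv1 channels), Kcnk10, Kcnn2 (a small-conductance calcium-activated channel) and Kcns3 (a silent subunit) were also higher. Kcnb2, a delayed rectifier of the Kv2 family, stood at 1.71 and 18.2 CPM against 384 and 419 CPM. Kcnc2, a Kv3 gene, stood at 5.26 and 12.6 CPM against 263 and 233 CPM. Kcna6, Kcnc4, Kcnd1, Kcnd3, Kcnh7, Kcnj9, Kcnj12, Kcnk3 and Kcnq5 were among the other lower genes.

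Kv1 genes were abundant in both kinds of neuron. Kcna1 stood at 480 and 455 CPM in members against 282 and 275 CPM, and Kcna2 at 499 and 458 CPM against 612 and 546 CPM, neither past 2-fold. After thinning, a Kcna2 UMI was seen in 59.0% and 57.3% of members against 9.29% and 10.1% of endothelial barcodes (unthinned members 92.4% and 86.2%). Kcnma1, the BK channel, stood at 116 and 113 CPM in members.

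Of 9 measured sodium channel genes none was at least 2-fold higher than in Pcp4-dominant neurons, and Scn9a, Scn2b and Nalcn were at least 2-fold lower, again beside 3.14% and 3.17% of all genes. Scn1a stood at 227 and 214 CPM in members and was part of the rule. Scn8a, the main channel of nodes and axon initial segments, stood at 257 and 233 CPM against 205 and 205 CPM. Scn4b, the subunit tied to resurgent current, stood at 125 and 116 CPM against 67.5 and 68.9 CPM. Scn10a and Scn11a, channels of pain fibres, had no UMI in members. Of the 4 HCN genes, which carry the hyperpolarization-activated current, Hcn2 stood at 123 and 116 CPM and Hcn4 at 20.8 and 18.7 CPM, while Hcn3 (2.20 and 4.50 CPM) was at least 2-fold lower than in Pcp4-dominant neurons (19.9 and 16.5 CPM).

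The same shares of all genes, 3.14% higher and 3.17% lower, stand beside the next 2 lists. Of 12 measured calcium channel genes, Cacna1d, an L-type pore subunit, was at least 2-fold higher (43.3 and 45.0 CPM against 18.5 and 12.3 CPM), and Cacna1c, Cacna2d2 and Cacng5 were at least 2-fold lower. Among 12 glutamate and GABA receptor genes, Grm7, a presynaptic metabotropic receptor, was at least 2-fold higher (48.8 and 46.3 CPM against 6.62 and 6.17 CPM) and none was lower in both libraries. Gria3 (160 CPM in both libraries), Gria2 (107 and 102 CPM), Gria4 (72.9 and 65.0 CPM) and the obligatory NMDA receptor subunit Grin1 (163 and 154 CPM) were detected in members, while Gria1 had 1 and 0 UMIs. Within the members, some channel genes also differed with Calb2. Of 29 potassium channel genes compared between the highest and the lowest Calb2 level, Kcnip4 and Kcns3 were at least 2-fold higher and Kcnab1, Kcnc2 and Kcnip2 at least 2-fold lower in both libraries, and of 7 sodium channel genes Scn2b and Nalcn were lower, beside 0.962% higher and 1.69% lower over all genes.

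Between the libraries, Isl1 comes first as the gene that the virus carried. It was not higher in the members of the AAV-Isl1 library: 2601 UMIs (318 CPM) in noise-only members and 2691 UMIs (295 CPM) in AAV-Isl1 members gave a ratio of 0.93 (0.88 to 0.98). The highest member held 17 UMIs in the noise-only and 10 UMIs in the AAV-Isl1 library. In kept barcodes that were not neurons, Isl1 stood at 11.7 and 57.7 CPM, and the highest such barcode held 8 and 94 UMIs. In the noise-only library, whose ears were untreated, 46.0% of thinned members had an Isl1 UMI, against 2.22% of endothelial barcodes (unthinned members 87.8%). In the AAV-Isl1 library 42.5% of thinned members had one, against 7.22% of endothelial barcodes (unthinned members 76.8%). Across the 3 Calb2 levels Isl1 stood at 287, 339 and 327 CPM in noise-only members and at 284, 313 and 290 CPM in AAV-Isl1 members. Whether vector RNA would be counted under the annotated Isl1 gene is not stated in the labels.

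Most genes had near-equal levels in the members of both libraries. Of 10170 genes with at least 100 UMIs, 155 (1.52%) had a ratio of AAV-Isl1 plus noise over noise only of at least 1.5 and 21 (0.206%) of at most 1/1.5, and the median log2 ratio of all of them was -0.01. Of the 155, 140 had a lower level in members than in all other kept barcodes of the AAV-Isl1 library and 15 did not. The part of other cells' RNA in these 140 was not tested. The count of 155 was 97 without the members past the 0.2% limit. None of the following lists had a gene past 1.5-fold except Syt1 in the synapse list, and the median log2 ratio was -0.08 for 10 type I genes, -0.05 for 20 axon cytoskeleton genes and -0.03 for 20 synapse genes.

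Ion channel genes were nearly all within 1.5-fold. None of 7 sodium, 3 HCN and 10 calcium channel genes nor of 12 glutamate and GABA receptor genes was past it, with median log2 ratios of -0.02, -0.08, 0.04 and -0.08. Of 34 potassium channel genes, 3 were at least 1.5-fold higher and none lower, with a median of -0.08, beside 1.52% and 0.206% of all genes. Those 3 were Kcnb2 at 10.6 (6.17 to 19.9), Kcnc2 at 2.40 (1.68 to 3.49) and Kcnmb4, a BK channel subunit, at 1.59 (1.06 to 2.42). Without the members past the 0.2% limit, 2 of 31 genes passed, Kcnb2 at 7.32 (3.99 to 14.7) and Kcnc2 at 1.98 (1.34 to 2.96). Kcnb2 rested on 14 and 166 UMIs in 8 and 33 members, and 5 AAV-Isl1 members held 70 of its UMIs. Without the members that carried 3 or more of the 12 genes of Pcp4-dominant neurons its ratio was 5.46 (2.94 to 11.0) on fewer than 100 UMIs, and that of Kcnc2 was 1.91 (1.29 to 2.88). The Pcp4 ratio was 4.95 with and 1.30 (0.90 to 1.87) without them. Pcp4 is part of the rule, and 1 AAV-Isl1 member held 202 of its 298 UMIs in that library. Syt1, a synaptic calcium sensor, is also a gene of Pcp4-dominant neurons (475 and 424 CPM there). Its ratio was 4.92 (3.25 to 7.71) with and 3.11 (1.95 to 5.12) without the members that carried 3 or more of those 12 genes. It was 3.55 (2.26 to 5.76) without the members past the 0.2% limit. Cacna1a, the P/Q-type pore subunit, had a ratio of 1.29 (1.15 to 1.45) at 60.9 and 78.3 CPM.

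**Figure D4:**
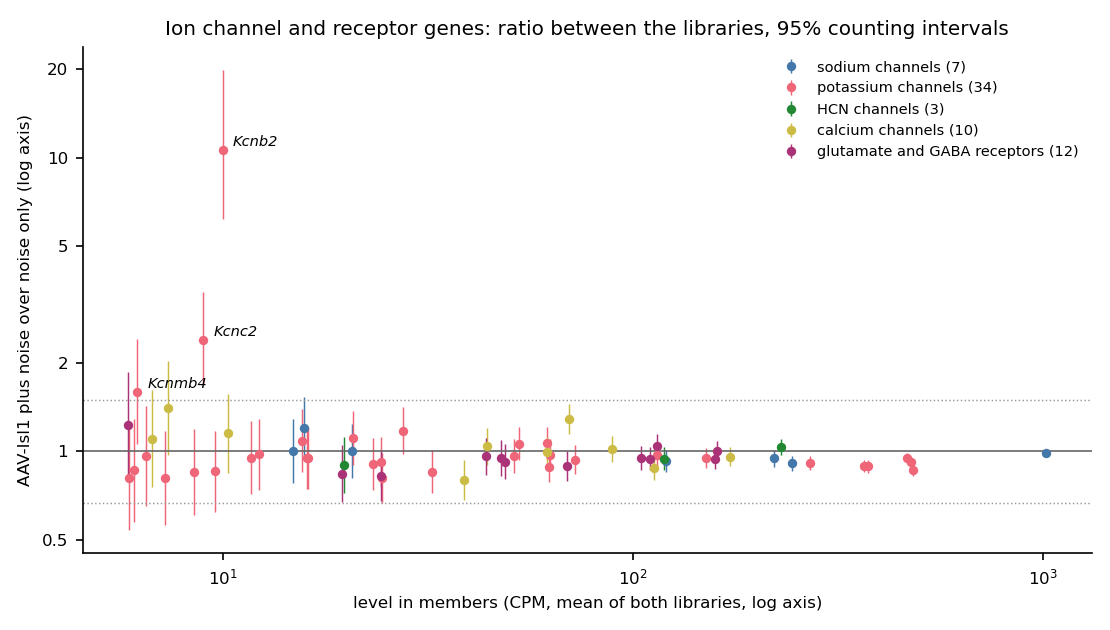
Ratio of AAV-Isl1 plus noise over noise only (y axis, log scale) with exact 95% counting intervals (bars) against the mean level in members of both libraries (x axis, CPM, log scale) for 66 ion channel and receptor genes with at least 100 UMIs, coloured by list; dotted lines mark 1.5-fold either way. Kcnb2 at 10.6, Kcnc2 at 2.40 and Kcnmb4 at 1.59 are the points past a dotted line.

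Subtype genes differed little between the libraries. Lypd1 had a ratio of 0.76 (0.74 to 0.78), Runx1 of 0.84 (0.77 to 0.92) and Mgat4c of 0.81 (0.66 to 0.98), and the median log2 ratio of the 6 genes of subtypes b and c was -0.26. Calb2 had a ratio of 1.05 (1.04 to 1.07), Rxrg of 1.34 (1.06 to 1.70) and B3gat1 of 1.00 (0.87 to 1.14), and the median of the 4 subtype a genes was 0.15. None passed 1.5-fold. Lypd1 without Calb2 was seen in 36.3% and 31.3% of thinned cells. Within the Lypd1-led clusters, Lypd1 stood at 3601 and 3219 CPM in the larger and at 4504 and 4174 CPM in the smaller. The parts of fewer cells of a kind and of less RNA per cell were not tested.

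The MHC class I list, which holds genes for presenting peptides to T cells and for making those peptides, stood apart in its counts. Of 9 measured genes, 7 had a ratio of at least 1.5 and none of at most 1/1.5, beside 1.52% and 0.206% of all genes. The median log2 ratio was 1.02 beside -0.01 over all genes. H2-D1, a class I heavy chain, was counted 203 and 663 times (24.8 and 72.7 CPM), a ratio of 2.93 (2.50 to 3.45). H2-K1, the other classical heavy chain, had a ratio of 2.47 (2.05 to 2.98) at 18.95 and 46.7 CPM, and B2m, the shared light chain, of 2.03 (1.78 to 2.32) at 40.5 and 82.3 CPM. The immunoproteasome genes Psmb8 and Psmb9 had ratios of 2.60 and 2.59, H2-T23 of 1.96 and Tap2, a peptide transporter, of 1.60, while Tapbp and Psmb10 were at 0.97 and 0.92. These UMIs were spread thinly, with H2-D1 in 140 and 383 members and at most 13 UMIs in any of them. All other kept barcodes had far higher levels of the same genes, with H2-D1 at 385 and 584 CPM (ratio 1.52) and B2m at 506 and 709 CPM (ratio 1.402). Without members past the 0.2% limit (793 and 1245 members), 7 of 9 genes were again past 1.5-fold (0.981% of all genes), the median was 0.91, and the ratios were 2.84 (2.35 to 3.44) for H2-D1 and 1.88 (1.62 to 2.18) for B2m. What part RNA of other cells has in the remaining ratio was not tested.

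Stress lists showed smaller differences. Their counts stand beside 1.52% of all genes at least 1.5-fold higher and 0.206% at least 1.5-fold lower. Of 8 axon injury genes none passed 1.5-fold and the median log2 ratio was 0.29, with Atf3, a stress-induced transcription factor, at 1.31 (1.19 to 1.45) and Klf6 at 1.45 (1.24 to 1.71). Without members past the 0.2% limit these were 1.14 (1.02 to 1.28) and 1.23 (1.03 to 1.47). Stmn4, a tubulin-binding protein, had a ratio of 1.18 (1.11 to 1.27) and Gadd45a, a DNA damage and injury gene, of 1.27 (1.12 to 1.43). Of 11 immediate early genes Nr4a1 passed (1.59, 1.22 to 2.08) with a median of 0.23, and of 17 interferon genes Ifitm2 passed (1.53, 1.29 to 1.83) with a median of 0.12. Without members past the 0.2% limit no interferon gene of 16 passed, with a median of 0.11, and the immediate early median was 0.11, with Nr4a1 at 1.59 (1.14 to 2.23). Levels of Nr4a1, Ifitm2, Fos and Jun were higher in all other kept barcodes than in members of both libraries. None of 14 heat shock genes, 12 genes of the p53 and cell death list or 19 antioxidant genes passed, with medians of 0.06, -0.04 and 0.03.

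**Figure D5:**
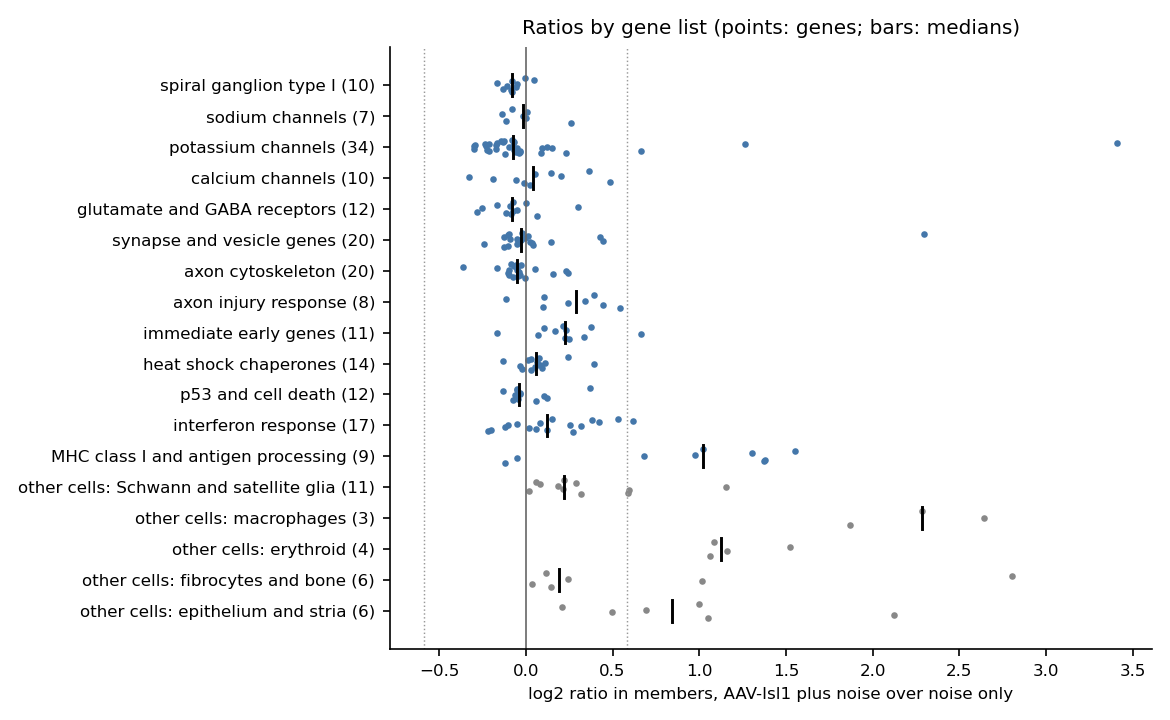
Log2 ratios of AAV-Isl1 plus noise over noise only in members (x axis) for genes with at least 100 UMIs (points) of 18 gene lists (y axis, number of genes in parentheses), with the median of each list as a black bar; blue points are lists of neuronal and response genes, grey points lists of other cell types, and dotted lines mark 1.5-fold either way. The neuronal lists centre near 0, the MHC class I list has a median of 1.02, the macrophage list 2.29 and the erythroid list 1.12; the neutrophil list, with a median of 6.90, is not drawn.

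Among genes whose level in members was at least that in all other barcodes, the highest ratio was that of Vgf at 2.04 (1.62 to 2.57), with 112 and 254 UMIs in 43 and 102 members. Vgf stood at 0 and 3.22 CPM in members without Calb2 and at 27.6 and 54.0 CPM in the highest Calb2 level. Ptpn5, a neuronal tyrosine phosphatase, followed at 1.83 (1.37 to 2.48), at 8.44 and 15.5 CPM in members against 181 and 221 CPM in Pcp4-dominant neurons. Bc1, a noncoding RNA of dendrites, had the most UMIs (1533 and 2697) and a ratio of 1.58 (1.48 to 1.68), while its level in all other kept barcodes was 118 and 206 CPM. Dok5 (1.65), Tdp1 (1.62), Trub2 (1.62), Mtss2 (1.56), Zdhhc9 (1.56), Pdgfc (1.55) and Lrrc10b (1.55) completed the 10.

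Under the same limit on the level in other barcodes, which leaves out 13 of the 21 lower genes, the lowest ratios were those of Eef1aknmt at 0.60 (0.40 to 0.90) and of Sarm1, the NADase that drives axon degeneration, at 0.62 (0.42 to 0.90) on 70 and 48 UMIs. Drd1, a dopamine receptor, had a ratio of 0.63 (0.43 to 0.92) on 71 and 50 UMIs. Dupd1 had a ratio of 0.64 (0.51 to 0.80), but its 188 and 134 UMIs lay in 17 and 19 members and 5 members of each library held 108 and 72 of them. On the log2 scale its ratio was -0.64, against 0.16 without the members marked as possible doublets. Dnajb5, Lrrc28, Ppox, Lsm11, Dhx57 and Bbs10, with ratios of 0.62 to 0.67, were the others. All 10 were chosen for extreme ratios. Of the genes left out by the limit, Crhbp, which encodes a binding protein for corticotropin-releasing hormone and was picked after its values were seen, had a ratio of 0.13 (0.089 to 0.19), with 241 and 35 UMIs in members and 330 CPM in all other noise-only barcodes. These UMIs were concentrated in few members. In a finer clustering (resolution 1), 65 of them lay in 0.676% of a cluster of 148 cells and 57 in 1.12% of a cluster of 89. Crhbp stood at 0 CPM in the AAV-Isl1 cells of both clusters. The interval treats UMIs as independent, so it does not cover this concentration. Bbs10, at -0.58 on the log2 scale, was at 0.34 after thinning to 2000 UMIs.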

How the data were processed

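Each group was 1 pooled library of single cells from 5 mice. The deposited values are unnormalized UMI counts of 32285 genes in each barcode, which the authors made with Cell Ranger 5.0.1 per the file headers; Cell Ranger 5.0, STAR, Seurat 3.2.2 and GRCm38 are named in the submitters' processing notes. The lowest deposited barcode held 500 UMIs, so barcodes had been filtered before deposit.

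Counts of members were summed per library and divided by the library's summed UMIs (CPM). Ratios divide the AAV-Isl1 library by the noise-only library, for genes with at least 100 UMIs over both, with exact conditional binomial 95% intervals; shares have Clopper-Pearson intervals, and a gene at 0 was given a floor of 3 UMIs over the group. Calls needed 1.5-fold between libraries and 2-fold in both libraries between kinds of neuron or Calb2 levels. With 1 library per group there was no test and no p-value. For shares, cells were thinned to 2000 UMIs, and barcodes with at least 4 of 8 endothelial genes served as background. The members were clustered with scanpy 1.11.5 (2000 variable genes, 30 components, 15 neighbours, Leiden resolution 0.5). Scrublet's automatic threshold called 0 barcodes in both libraries, so it did not work as a caller; a score threshold of 0.195, which marks 6% of noise-only barcodes, marked 119 and 170 members, who were kept except in an alternative. Gene sets came from 33 lists. The calculations ran in Python 3.11.15 with numpy 2.4.6, scipy 1.17.1 and pandas 2.3.3, and TMM factors in edgeR 4.0.16; the ratio script was tested on simulated counts.

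The members and lists were chosen with earlier results of these data known. Genes named by rule were Isl1, the 3 members of each list with the most UMIs, the 10 highest and 10 lowest ratios, the 12 highest and 12 lowest against Pcp4-dominant neurons (by the weaker of the 2 libraries) and the 15 most different each way between Calb2 levels. Candidates for these had an interval excluding 1 and a level at least that of all other kept barcodes, and mitochondrial, ribosomal, hemoglobin and immunoglobulin genes and unnamed models were left out. Subtype and channel genes could be named freely. Cluster genes, further list members and the genes of Pcp4-dominant neurons seen in members were chosen after their values were seen. Strand settings of the counting are not given in the sources used here. Alternatives covered the barcode filter, doublets, the Calb2 rule, depth, scaling, weighting of cells and the UMI minimum. Some genes are not reported here.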

Additional observations from a re-analysis of the deposited data

How the results depend on the processing

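No paired analysis was possible because each group is 1 library and the labels give no replicate numbers. The ratio of the member shares ran from 1.38 to 1.55 and the Isl1 log2 ratio from -0.14 to -0.07 over their alternatives. The counts of genes past 1.5-fold, 155 higher and 21 lower, were 77 and 42 after thinning to 2000 UMIs, 741 and 266 with at least 20 UMIs, and 1850 and 942 with at least 1 UMI in each library, so the count follows the UMI minimum. The higher count was 97 without members past the 0.2% limit on other cells' genes, and the lower count was 49 with each cell weighted equally and 11 without the 5 members richest in each gene. Against Pcp4-dominant neurons, 331 higher and 334 lower genes became 172 and 123 after thinning, and 642 were lower with at least 20 UMIs. Between Calb2 levels, 91 and 160 became 37 and 62 after thinning. Resolution 1 gave 17 clusters in place of 10. The Dupd1 log2 ratio of -0.64 was 0.16 without possible doublets and 4.18 with Calb2 above Pcp4 and at least 1 UMI, a rule that leaves out most cells of the Dupd1-led cluster. Of 220 values of the named genes under alternatives, 210 kept their direction and size, as did 282 of 284 list medians and 102 of 144 shares of cells with a UMI, of which 42 moved, mostly with the depth of thinning or the Calb2 rule; the immediate early median was 0.01 with each cell weighted equally. Thinning lowers power for genes of few UMIs. The 0.2% limit, the Calb2 levels and the removal of members with genes of Pcp4-dominant neurons were chosen after seeing the data.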

Other observations

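At resolution 1, 2 small clusters of 35 and 101 members, all with at least 1 Calb2 UMI, were both led by Gadd45a, Vgf, Lrrc10b, Stmn4, Tnfrsf12a and Calcb, and the smaller one also by Ecel1 and Atf3. Gadd45a, Stmn4, Ecel1 and Atf3 are on the axon injury list, of which Jun stood at 322 against 393 CPM in the smaller and 400 against 391 CPM in the larger cluster, and Sprr1a and Npy had no UMI in either. Gadd45a stood at 690 CPM in the smaller one against 55.0 CPM in the remaining members, and at 433 against 45.1 CPM in the larger one. Vgf stood at 291 against 16.0 CPM and at 193 against 10.9 CPM, Atf3 in the smaller one at 452 against 92.5 CPM, and Ecel1, an endopeptidase induced by nerve injury, at 86.7 against 3.1 CPM. In the smaller cluster Pvalb, which encodes the calcium buffer parvalbumin, stood at 1863 against 3505 CPM, Nefh at 1610 against 2663 CPM and Isl1 at 180 against 308 CPM. The larger cluster had Pvalb at 1885 against 3569 CPM, Nefh at 1671 against 2702 CPM and Isl1 at 195 against 313 CPM. The cells came from both libraries, 7 and 28 in the smaller cluster (0.81% and 1.94% of members) and 33 and 68 in the larger (3.84% and 4.72%). These genes define the clusters, so their levels are a description.

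A further cluster at that resolution held 13 cells, all of the AAV-Isl1 library, with the neutrophil list at 46859 CPM.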
